A study of Homo sapiens with 5 samples.

Results

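Rb binding was examined at the genes that write, copy and remove DNA methylation. The set held 10 genes of 19970 protein-coding genes in GENCODE 44: DNMT1, UHRF1, HELLS and CDCA7 for maintenance, DNMT3A and DNMT3B for de novo methylation, UHRF2, and the erasers TET1, TET2 and TET3. Genes were listed by name, with earlier results of these data known. A gene counted as bound in a library when a called peak overlapped the window from 2000 bp upstream to 500 bp downstream of any of its annotated transcription start sites (TSSs), and peaks elsewhere in the gene body were counted separately.

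DNA methylation in mammals is copied at each round of replication. UHRF1 recognises the hemimethylated CpG left behind the replication fork and brings in DNMT1, which methylates the new strand, while HELLS, a nucleosome remodeller activated by CDCA7, opens compact chromatin to this machinery. DNMT3A and DNMT3B place methyl groups at new sites, and the TET dioxygenases oxidise methylcytosine as the first step of its removal. Rb, the tumour suppressor encoded by RB1, binds E2F transcription factors at promoters of genes used for DNA replication when it is hypophosphorylated, and CDK4 and CDK6 phosphorylate it.

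The data were peak lists from CUT&RUN, which uses an antibody-tethered nuclease to release the DNA under a chromatin protein for sequencing. All cells were parental ZR-75-1, a breast cancer line that expresses the oestrogen receptor, which limits the results to a single line. Rb was profiled after 4 days in DMSO (2 libraries) or in 500 nM abemaciclib, a CDK4/6 inhibitor (2 libraries), and 1 IgG2a library from DMSO-treated cells gave the background. The replicates were independent cultures according to the study's methods. The lists hold binding and no expression, so the cell line label was not checked against marker genes.

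Rb peaks numbered 1438 (replicate 1) and 2582 (replicate 2) after DMSO and 13960 and 12234 after abemaciclib, while IgG2a had 589. The fragments behind each list were estimated from its peaks and not counted. Estimates were 13.0 ± 0.974 M for DMSO and 8.71 ± 1.44 M for abemaciclib (mean ± SD, n = 2 each), where M stands for mega. Heights below are scaled per M of these implied fragments. The least peak width was taken as the mean fragment length, 143 and 134 bp in DMSO and 182 and 183 bp in abemaciclib. The DMSO estimate exceeds the cluster numbers per sample that the paper states, so scaled ratios are uncertain. IgG2a had no peak in the promoter or the body of any of the 10 genes. Over all coding genes it had a promoter peak at 6 of 19970 (0.0300%), so its absence here says little about the set.

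Abemaciclib-treated cells had Rb peaks at 9 of the 10 promoters in each replicate, and DMSO-treated cells at 3 of 10 in each replicate. The 3 promoters bound in all 4 Rb libraries belonged to DNMT1, HELLS and CDCA7. A further 6 were gained, that is, with a peak in each abemaciclib replicate and none in either DMSO replicate: UHRF1, DNMT3A, DNMT3B, UHRF2, TET2 and TET3. TET1 had no peak in any library. A promoter peak was present at 7.86% of all coding genes in DMSO replicate 1, 12.4% in DMSO replicate 2, 58.0% in abemaciclib replicate 1 and 53.9% in abemaciclib replicate 2. The background shares of the 3 patterns were 6.41% of coding genes for a peak in all 4 libraries, 38.9% for gained and 40.7% for no peak.

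The number of bound genes in the set was 9 ± 0 in abemaciclib and 3 ± 0 in DMSO (mean ± SD, n = 2 each), and the replicates of a treatment did not differ. The exact permutation test, two-sided, gave p = 0.33, which is the smallest value that 2 libraries against 2 allow. Over all coding genes the numbers were 11172 ± 583 and 2027 ± 646, also with an exact permutation p of 0.33. The count for the set depended on the length of the lists: when each was reduced to its strongest 1438 peaks, the numbers were 3 and 2 in DMSO and 2 and 2 in abemaciclib, a difference of -0.500 (exact permutation p = 1.00). With only peaks at a q-value of 1e-05 or lower, the treatments still differed by 6 genes, but DNMT1 alone was bound in all 4 libraries.

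**Figure D1:**
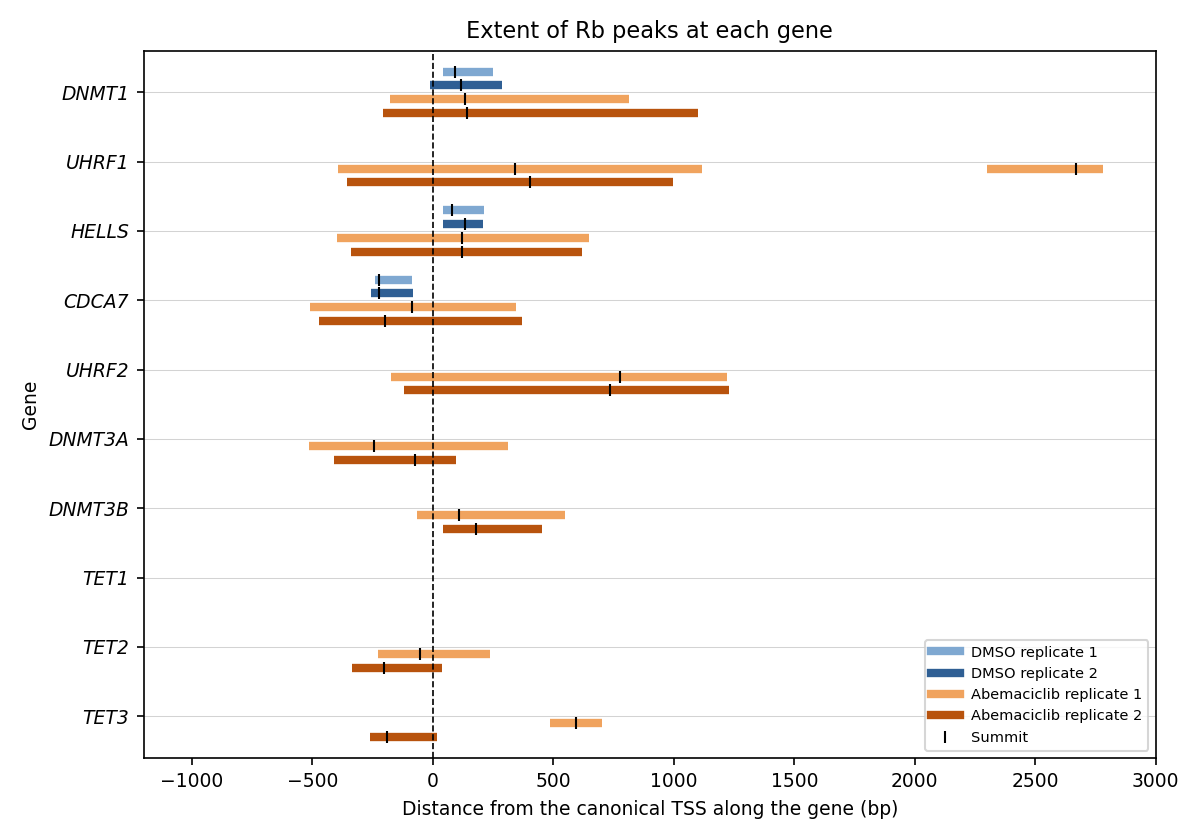
Extent of the Rb peaks at each gene, as distance in bp from the canonical TSS in the direction of transcription (horizontal axis), with a bar for each library and a tick at its summit. DNMT1, HELLS and CDCA7 carry bars from all 4 libraries, the abemaciclib bars being longer, and TET1 carries none. The second DNMT1 promoter peak, which lies outside the plotted range, is not drawn.

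After abemaciclib, DNMT1, UHRF1 and HELLS had the best ranked Rb peaks of the set, followed in both replicates by UHRF2 and then CDCA7. Peaks were ranked within each list by the p-value of the authors' peak caller, and a rank percentile is the rank divided by the list length, so that a low percentile is a strong peak. In abemaciclib replicate 1 the 4 maintenance genes had a median percentile of 9.56 (range 3.62 to 38.5), and in replicate 2 of 11.5 (5.97 to 29.3). All coding genes with a promoter peak had medians of 37.9 in replicate 1 and 40 in replicate 2. The 4 bound de novo and TET genes had medians of 79.0 (75.7 to 86.0) and 80.1 (64.3 to 90.8), so their ranges did not overlap those of the maintenance genes in either replicate. UHRF2, at 26.1 and 27.2, lay inside the range of the maintenance genes. Genes are not replicates, and no test was made between these groups.

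Short stretches of the maintenance promoters are printed because each holds a match to an E2F pattern inside the abemaciclib replicate 1 Rb peak. The match nearest the abemaciclib replicate 1 summit is shown for each gene, and for UHRF1 also the match nearest the canonical TSS, the start of the MANE Select transcript. The pattern was TTNNCGC on either strand, with each N a C or a G, and overlapping matches were each counted. Capitals mark the match, and each sequence is written along the gene's own strand from GRCh38. The stretches lie at chr19:10194938-10194967 (DNMT1, minus strand), chr19:4909715-4909744 and chr19:4909476-4909505 (UHRF1, plus strand), chr10:94545770-94545799 (HELLS, plus strand) and chr2:173354796-173354825 (CDCA7, plus strand).
DNMT1: ccatcggtttccGCGCGAAaagccggggcg
UHRF1 near the summit: tttgcaaaactTTCCCGCgcggccagcccg
UHRF1 near the TSS: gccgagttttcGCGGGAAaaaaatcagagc
HELLS: atgacaggattTTCCCGCgaaggagaagcg
CDCA7: tgtgtcccaacGCGGGAAagacagcccgag
The DNMT1 match begins 2 bp before the canonical TSS (position -2), the second UHRF1 match at -14, the HELLS match at -7 and the CDCA7 match at -65, while the first UHRF1 match begins at 225 bp inside the gene. Distances from the replicate 1 summit were 133 bp for DNMT1, 114 bp for the first UHRF1 match, 124 bp for HELLS and 26 bp for CDCA7. A match describes the letters only and is not a measured E2F site.

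DNMT1, the maintenance methyltransferase, spans chr19:10133342-10231286 on the minus strand (ENSG00000130816.17) and was bound in every Rb library. In DMSO its best peak had a fold enrichment of 6.38 and 9.67 over local background in replicates 1 and 2, with −log10 p of 9.43 and 16.9 and ranks of 676 of 1438 and 388 of 2582. In abemaciclib the fold enrichment was 60.3 and 43.2, −log10 p 181 and 113, and the rank 506 of 13960 and 730 of 12234. Both abemaciclib values lay above both DMSO values, while the peak was already among the upper 15.0% of the list in DMSO replicate 2. The 4 summits lay within 47 bp of each other, from 93 to 140 bp downstream of the canonical TSS, over exon 1 in DMSO and the start of intron 1 in abemaciclib. The replicate 1 abemaciclib peak spanned chr19:10194141-10195129.

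DNMT1 also had a second promoter peak far upstream, over alternative start sites that share their window with S1PR2, a sphingosine 1-phosphate receptor gene. It spanned chr19:10230953-10231591 in abemaciclib replicate 1 (fold enrichment 12.7, rank 6270) and chr19:10230986-10231540 in replicate 2 (7.89, rank 7863). Neither DMSO library had it. The peak cannot be assigned to DNMT1 rather than S1PR2.

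The fold enrichment and p-value of a peak depend on the depth of its library, so a depth-scaled height was also computed. The peak caller's fold is the number of fragments over the summit (the pileup) plus 1, divided by the local background plus 1, and its p-value is a Poisson tail of the same quantities, so both could be solved for. The DNMT1 pileup was 10 and 16 fragments in DMSO and 103 and 67 in abemaciclib. Scaled per M implied fragments, it was 9.65 ± 1.33 after abemaciclib and 0.994 ± 0.253 after DMSO (mean ± SD, n = 2 each), with a ratio of 9.71. Ratios of single libraries ran from 7.43 to 13.0, and the exact permutation test gave p = 0.33, the smallest possible. Without depth scaling the ratio was 6.54, and on the deposited fold enrichment 6.45. Coverage at DNMT1 was thus 103 fragments at most, and values in DMSO rested on 16 or fewer.

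**Figure D2:**
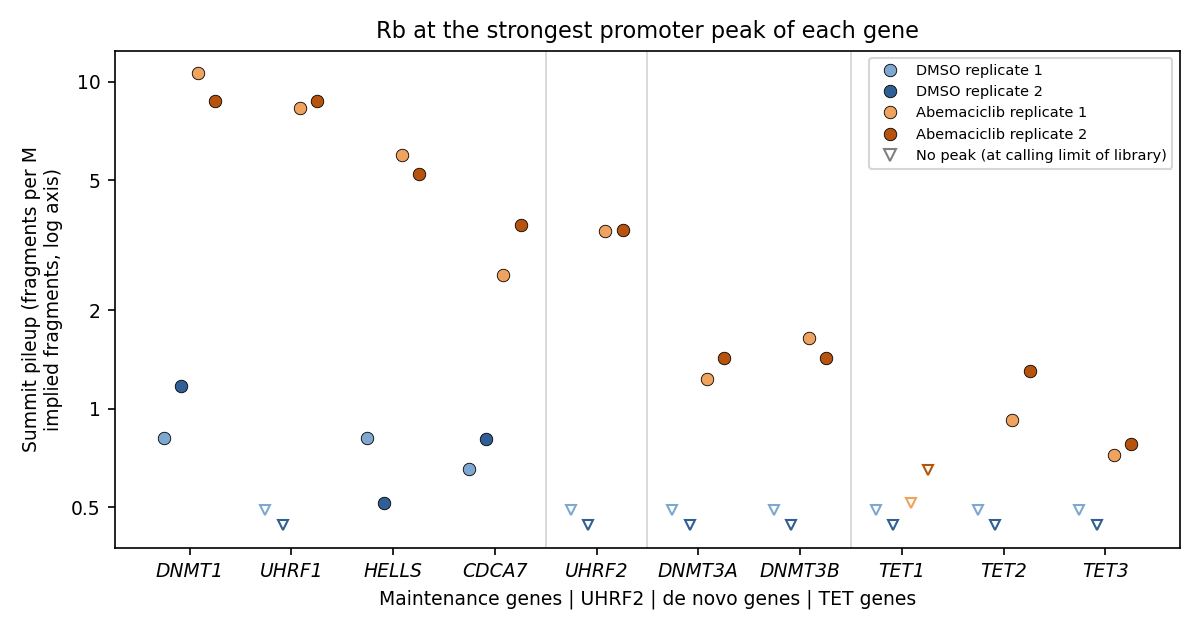
Summit pileup at the strongest promoter peak of each gene, in fragments per M implied fragments (vertical log axis), with a filled point per Rb library. Open triangles mark libraries without a peak, drawn at the lowest pileup that any peak of that library could have been called with, not at a measurement. DNMT1 and UHRF1 are highest after abemaciclib, and TET3 is lowest among the bound genes.

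UHRF1, the reader of hemimethylated CpG, spans chr19:4903080-4962154 on the plus strand (ENSG00000276043.5) and had no peak in DMSO. In abemaciclib its peak had a fold enrichment of 43.0 and 39.6, −log10 p of 127 and 107, and ranks of 977 of 13960 and 804 of 12234. This placed it next to DNMT1: 5.86% of coding genes in replicate 1 and 4.89% in replicate 2 had a promoter peak ranked at or above it. The pileup was 81 and 67 fragments, or 8.52 ± 0.273 per M (mean ± SD, n = 2), against 9.65 ± 1.33 for DNMT1. The peak was 1510 and 1352 bp wide, with summits 342 and 402 bp inside the gene, in intron 1, and spanned chr19:4909109-4910618 in replicate 1. At the local background of the abemaciclib libraries, a DMSO library would have needed 7 fragments for a call, or 0.571 and 0.513 per M in replicates 1 and 2.

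UHRF1 was also the only gene of the 10 with a gene-body peak outside its promoters. The peak lay in intron 2 at chr19:4911800-4912284, 2668 bp from the canonical TSS, in abemaciclib replicate 1 alone, with a fold enrichment of 6.99 and a rank of 9738. Of all coding genes, 9.95% had such a peak in either abemaciclib library.

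HELLS, the remodeller, spans chr10:94545329-94613905 on the plus strand (ENSG00000119969.16). Its DMSO peaks had a fold enrichment of 6.28 and 4.50, with −log10 p of 9.26 and 5.78 and ranks of 695 of 1438 and 2269 of 2582. In abemaciclib the fold enrichment was 33.7 and 25.7, −log10 p 87.7 and 59.0, and the rank 1691 of 13960 and 2008 of 12234. HELLS in DMSO replicate 2 was thus close to the end of its list, with a pileup of 7 fragments. The pileup per M implied fragments was 5.58 ± 0.538 after abemaciclib and 0.664 ± 0.214 after DMSO (mean ± SD, n = 2 each), with a ratio of 8.40 with single-library ratios from 6.38 to 11.6 (exact permutation p = 0.33). On the deposited fold enrichment the ratio was 5.51. All 4 summits lay in the 5′ UTR part of exon 1, 78 to 132 bp from the canonical TSS. The replicate 1 abemaciclib peak spanned chr10:94545391-94546438.

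CDCA7, the partner of HELLS, spans chr2:173354820-173368997 on the plus strand (ENSG00000144354.15). Its DMSO peaks had a fold enrichment of 4.72 and 6.16, with −log10 p of 6.30 and 9.34 and ranks of 1246 of 1438 and 1176 of 2582. In abemaciclib the fold enrichment was 14.3 and 16.9, −log10 p 29.2 and 35.5, and the rank 5374 of 13960 and 3580 of 12234. It was the weakest of the maintenance genes after abemaciclib in both replicates, although it was bound in DMSO and UHRF1 was not. In DMSO a call at UHRF1 needed 7 fragments and the CDCA7 peaks rested on 8 and 11, so this contrast rests on few fragments. The pileup per M was 3.11 ± 0.757 after abemaciclib and 0.729 ± 0.109 after DMSO (mean ± SD, n = 2 each), with a ratio of 4.26 with single-library ratios from 3.19 to 5.58 (exact permutation p = 0.33). Without depth scaling this ratio was 2.79. The DMSO summits both lay 224 bp upstream of the canonical TSS (position -224), and the abemaciclib summits at -88 and -198. The replicate 1 abemaciclib peak spanned chr2:173354363-173355219.

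Peaks at the 3 genes bound in all libraries were broader after abemaciclib. Widths were 1148 ± 224 bp against 254 ± 61.5 bp in DMSO for DNMT1, 1004 ± 62.2 against 168 ± 1.41 bp for HELLS, and 851 ± 8.49 against 165 ± 14.1 bp for CDCA7 (mean ± SD, n = 2 each). No abemaciclib width overlapped a DMSO width, and each exact permutation p was 0.33. Median widths over all peaks were 277 and 256 bp in DMSO and 755 and 726 bp in abemaciclib, so peaks were broader across the lists too. Ratios of mean width were 4.51 for DNMT1, 5.98 for HELLS and 5.16 for CDCA7. The DMSO widths of HELLS and CDCA7 lay below both DMSO medians.

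UHRF1, HELLS and CDCA7 did not have the promoter pattern most frequent among coding genes of similar rank. Coding genes with a promoter peak were split into deciles of the abemaciclib list. In the strongest decile of replicate 1, which held DNMT1 and UHRF1, 62.9% of 1670 genes were bound in all 4 Rb libraries and 11.1% were gained. In replicate 2 the strongest decile held the same pair, with 67.4% and 8.29% of 1471 genes. UHRF1 was therefore one of 185 gained genes in the strongest decile in replicate 1 and of 122 in replicate 2. CDCA7 showed the converse: in replicate 1 it lay in decile 4, where 7 of 1362 genes (0.514%) were bound in all 4 libraries, and in replicate 2 in decile 3, where 50 of 1333 (3.75%) were. HELLS, also bound in all 4, lay in decile 2 of both replicates. There 12.1% and 16.5% of genes were bound in all 4, and 50.3% and 45.2% were gained.

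**Figure D3:**
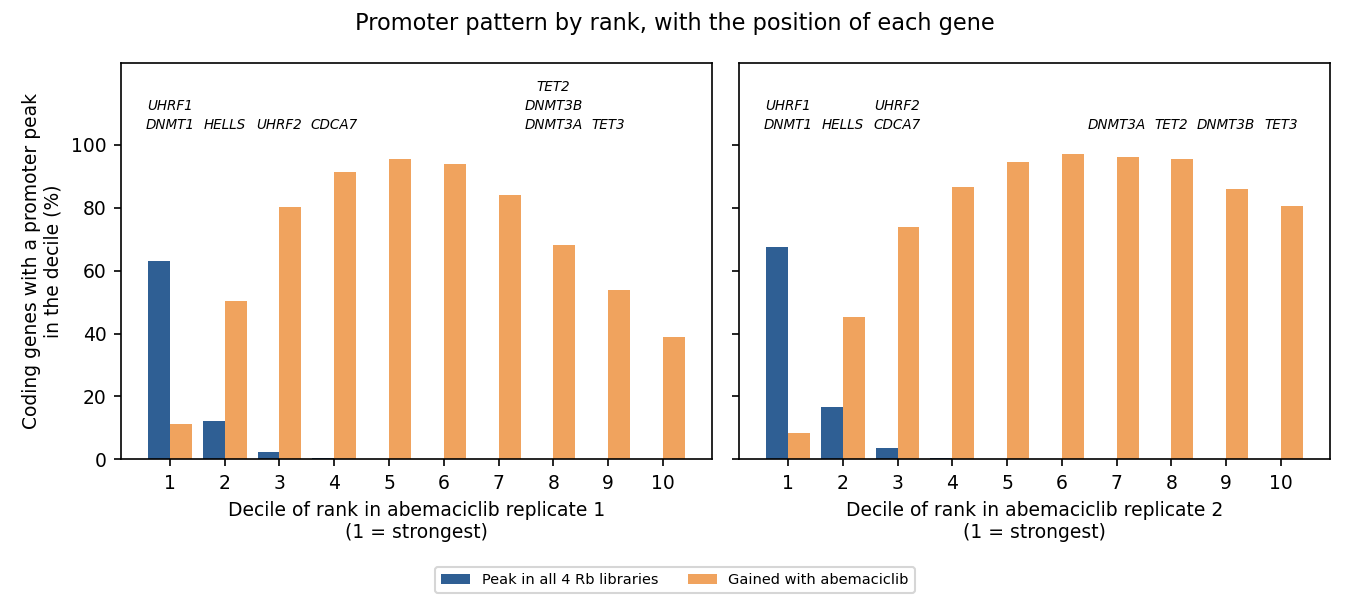
Share of coding genes bound in all 4 Rb libraries (blue) or gained with abemaciclib (orange), in percent, by decile of rank in abemaciclib replicate 1 (left) and replicate 2 (right), with the genes of the set named above their decile. Genes bound in all 4 libraries are concentrated in the strongest deciles, where UHRF1 is a gained gene, and the de novo and TET genes lie from decile 7 onwards.

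UHRF2, the paralogue of UHRF1 that also binds modified cytosine and histones, spans chr9:6413151-6507054 on the plus strand (ENSG00000147854.17). It was gained with a peak of intermediate strength. In abemaciclib the fold enrichment was 21.1 and 18.4, −log10 p 46.7 and 37.6, and the rank 3650 of 13960 and 3325 of 12234. The replicates lay close together, at 3.49 and 3.51 fragments per M, and both were below UHRF1. A DMSO library would have needed 6 fragments for a call there, 0.489 and 0.440 per M. The peak was 1394 and 1349 bp wide, with summits 775 and 735 bp inside the gene, in intron 1, and a span of chr9:6413027-6414420 in replicate 1. Across coding genes the quartiles of summit position in replicate 1 were -232, 0 and 147 bp, so the UHRF2 and UHRF1 summits lay downstream of the upper quartile relative to their canonical starts. Other annotated start sites were nearer, with the UHRF2 summits at -84 and -124 bp from one of them and the UHRF1 summits at -303 and -243 bp. The E2F match nearest the UHRF2 summit, 17 bp away and 755 bp inside the gene, is printed because it lies beside that summit and far from the canonical TSS (chr9:6413943-6413972, GRCh38, plus strand, capitals as above).
UHRF2: aggtccctcgcTTCCCGCgctcggcggggc

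The de novo methyltransferase genes were both gained and both weak. DNMT3A spans chr2:25227855-25342590 on the minus strand (ENSG00000119772.19). Its abemaciclib peaks had a fold enrichment of 5.21 and 7.89, −log10 p of 8.13 and 12.3, and ranks of 10934 of 13960 and 7863 of 12234. They were 830 and 506 bp wide with summits upstream of the canonical TSS at -243 and -75, and the replicate 1 peak spanned chr2:25341611-25342440. DNMT3B spans chr20:32762385-32809359 on the plus strand (ENSG00000088305.19). Its peaks had a fold enrichment of 4.87 and 4.79, −log10 p of 8.84 and 7.16, and ranks of 10564 and 10251. They were 615 and 409 bp wide with summits 109 and 180 bp inside the gene, in the 5′ UTR part of exon 1, and the replicate 1 peak spanned chr20:32762320-32762934.

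Pileups at these genes were 12 and 11 fragments for DNMT3A and 16 and 11 for DNMT3B, or 1.33 ± 0.139 and 1.54 ± 0.152 per M (mean ± SD, n = 2 each). The median over coding genes with a promoter peak and a solved pileup was 2.67 and 2.73 per M in abemaciclib replicates 1 and 2, above both genes. At the same relative background, a DMSO library would have needed 9 fragments at DNMT3A (0.734 and 0.660 per M) and 12 or 11 at DNMT3B (0.979 and 0.806 per M). The absence of a DMSO peak at DNMT3B therefore bounds its height at a level not far below the abemaciclib values, and a difference smaller than that was not detectable at this depth. DNMT3B had 1 E2F match, 30 bp from the replicate 1 summit (chr20:32762510-32762539, GRCh38, plus strand), and DNMT3A had none in its peak.
DNMT3B: cgggcgagcggGCGGCAAcgctgcccggcc

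The TET genes ranged from no peak to peaks near the end of the lists. TET2, which spans chr4:105145875-105279816 on the plus strand (ENSG00000168769.14), had a fold enrichment of 5.50 and 6.15 in abemaciclib, −log10 p of 7.76 and 9.05, and ranks of 11127 and 9339. Its peaks were 466 and 375 bp wide, with summits upstream of the canonical TSS at -53 and -203, and the replicate 1 peak spanned chr4:105146648-105147113. Its pileups were 9 and 10 fragments, 1.11 ± 0.265 per M (mean ± SD, n = 2). A DMSO call would have needed 8 and 7 fragments, 0.652 and 0.513 per M.

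TET3, which spans chr2:73984910-74108176 on the plus strand (ENSG00000187605.16), met the definition of gained with peaks at different places. The replicate 1 peak lay in intron 1 at chr2:73985397-73985610 (fold enrichment 4.83, −log10 p 6.32, rank 12002), and the replicate 2 peak at chr2:73984651-73984927 (4.60, 5.88, rank 11113). The 2 peaks were separated by 469 bp, with summits 787 bp apart, against a summit spread of 40 to 168 bp at the other 8 bound genes. Pileups were 7 and 6 fragments, 0.750 ± 0.0429 per M (mean ± SD, n = 2), and a DMSO call would have needed 6 (0.489 and 0.440 per M). No position at TET3 was bound in both replicates, and both peaks also overlapped promoters of ENSG00000235499, a long non-coding RNA gene.

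TET1, which spans chr10:68560337-68694487 on the plus strand (ENSG00000138336.9) and has a single annotated TSS, had no peak in its promoter or body in any library. At the lowest background of each abemaciclib list, a call needed a computed 5 fragments, 0.514 and 0.650 per M in replicates 1 and 2. Rb below about that height was not detectable. The local background at TET1 is not known, and a higher one would raise this limit. Of the 10 canonical promoters, from 250 bp before to 50 bp after the TSS, that of TET1 had the fewest CpGs, with 10 in 300 bp. The other 9 had between 20 (CDCA7) and 46 (DNMT3A).

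Within these 300-bp promoters an E2F pattern was present in 6 of 10 genes, DNMT1, UHRF1, HELLS, CDCA7, UHRF2 and TET3, and in 17.1% of all coding genes. All 4 maintenance genes were thus among those with a match, and neither de novo gene was. The CHR pattern of cell cycle genes (TTTGAA or TTCGAA) was present in 1 of 10, against 12.8% of coding genes. The NFY pattern (CCAAT) was present in 2 of 10, against 36.0%, and the SP pattern (GGGCGG) in 8 of 10, against 61.3%. E2F and SP patterns can share bases, so their counts are not independent.

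Around the summits the E2F pattern was less regular. In 200-bp windows centred on the summits, 3 of 9 genes had a match in abemaciclib replicate 1 (CDCA7, DNMT3B and UHRF2) and 5 of 9 in replicate 2, where UHRF1 and TET3 were added. The shares over all promoter peaks of the lists were 17.5% and 17.9%. In DMSO 3 of 3 and 1 of 3 had a match, against 30.1% and 27.6%. These windows reached past the DMSO peaks of HELLS and CDCA7, and past that of DNMT1 in replicate 1. The whole DMSO peaks held a match at 0 of 3 and 1 of 3 genes, against 41.8% and 38.5%. The whole peaks in abemaciclib held a match at 6 of 9 and 7 of 9 genes, against 50.1% and 49.8%. In replicate 1 these were 4 matches each at DNMT1, UHRF1 and UHRF2, 2 each at HELLS and CDCA7, 1 at DNMT3B and none at DNMT3A, TET2 or TET3. No CHR or NFY pattern was present in the 200-bp windows of any of the 9 genes in either replicate. Over all promoter peaks the shares in replicates 1 and 2 were 4.72% and 4.98% for CHR and 18.8% and 19.7% for NFY. With 9 genes, such an absence says little about the set.

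A fixed list of 56 other genes of the DNA methylation pathway was examined in the same way. Of these, 8 (14.3%) were bound in all 4 Rb libraries, 9 in both abemaciclib libraries and a single DMSO library, 32 (57.1%) were gained, 2 had a peak in a single abemaciclib library and 5 (8.93%) had none. Over all coding genes the shares were 6.41% for all 4, 7.39% for both abemaciclib libraries and a single DMSO library, 38.9% for gained, 6.53% for a single abemaciclib library and 40.7% for none. A peak in both abemaciclib libraries was thus present at 49 of the 56 genes (87.5%), against 52.7% of coding genes.

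Among 15 cofactors of writing, 3 were bound in all 4 libraries and 7 were gained. The 3 were PCNA, the sliding clamp of replication (ranks 13 and 27 in abemaciclib replicates 1 and 2), LIG1, the ligase of Okazaki fragments (216 and 144, from a peak also over ZSWIM9), and CDCA7L, the paralogue of CDCA7 (1076 and 1086). PCNA and LIG1 act in DNA replication in general, and both ranked above DNMT1 and UHRF1. The gained genes with the best ranks were QSER1, which guards regulatory sites against methylation (2524 and 1638), and ZBTB24, a zinc finger factor that activates CDCA7 (5253 and 3830). DNMT3L, the cofactor of de novo methylation, and TRIM28, a corepressor, had no peak.

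Of 8 genes grouped as readers, MBD1 alone was bound in all 4 libraries (341 and 369), 3 had peaks in both abemaciclib libraries and a single DMSO library, and 3 were gained. The best ranked of the gained genes in this group were MBD3, a subunit of the NuRD complex (3329 and 2382), and ZBTB4 (4426 and 4344, from a peak also over POLR2A). ZBTB38 had no peak.

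Among 15 genes of cytosine removal and partners of TET, 9 were gained. Of these, GADD45A, a DNA damage response gene (1760 and 2767), and XRCC1, a scaffold of single-strand break repair (2521 and 2110, from a peak also over PINLYP), ranked best. CXXC4 had no peak. These partners included genes ranked far above TET2 and TET3 themselves.

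All 6 genes for proteins that bind unmethylated CpG islands had peaks in both abemaciclib libraries, as 52.7% of coding genes did. FBXL19 was bound in all 4 (1510 and 1479) and 4 were gained, with CXXC1, a subunit of histone methyltransferase complexes (1117 and 2266), and KDM2A, a histone demethylase (2930 and 2979), ranked best. Of 12 genes that supply the methyl donor, MTR, methionine synthase (251 and 271), and MTHFD1, an enzyme of folate metabolism (221 and 291), were bound in all 4. A further 9 were gained, led by AHCY, which removes the by-product of methyl transfer (1047 and 872), and MAT2A, which makes S-adenosylmethionine (2443 and 2266). BHMT had no peak. In abemaciclib replicate 1, 11 of the 49 pathway promoters with a peak shared that peak with another coding gene.

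**Figure D4:**
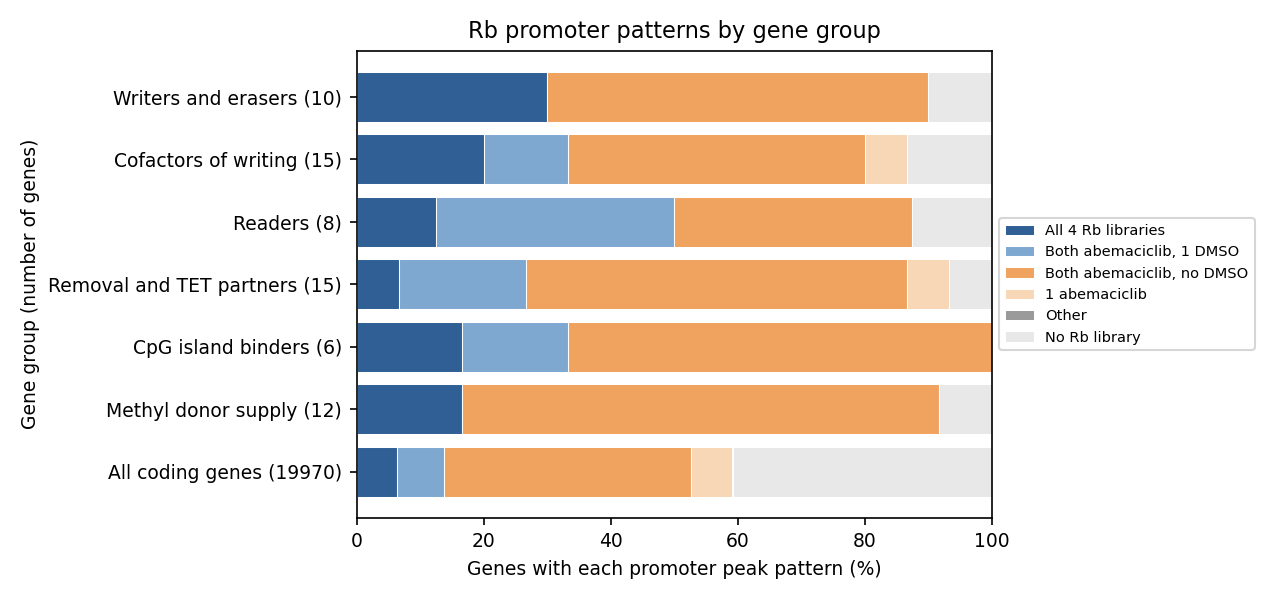
Share of genes with each promoter pattern, in percent, for the 10 writer and eraser genes, 5 groups of other pathway genes and all 19970 coding genes. Each bar sums to 100 percent, with the number of genes in parentheses. The no-peak share is 40.7% over all coding genes, 10.0% in the set of 10, and at most 13.3% in each of the other groups.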

How the data were processed

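Rb CUT&RUN was performed in 4 libraries and IgG2a CUT&RUN in 1. After BBDuk trimming, the authors aligned the read pairs with Bowtie2 (2.3.4.1) to GRCh38, removed mitochondrial and blacklisted reads, kept duplicates, and ran MACS2 (2.2.7.1) per library against IgG at a q-value threshold of 0.05. Tool versions are from the submitters' processing notes. The deposited lists give each peak a fold enrichment (a ratio), −log10 of a p-value and of its q-value, an integer display score, and the offset of the summit. The score was not used.

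Peaks were joined to GENCODE 44 genes with Python (3.11.15), NumPy (2.4.6) and SciPy (1.17.1). A peak counted at 1 bp of overlap, and coordinates are counted from 1. Ranks used the −log10 p of the deposited lists, and for several peaks the strongest was taken. Whole-number pileups and local backgrounds were solved from the deposited fold and −log10 p. Of peaks with a −log10 p of at most 40, at least 99.9% were resolved in each list. A solved pileup was available at 11367 of 11584 coding genes with a promoter peak in abemaciclib replicate 1. In replicate 2 it was available at 10655 of 10760. The solver was tested on simulated data. Fragment numbers assume that the lowest recurrent background is total coverage over 2.7 Gb and that the least peak width is the mean fragment length. The lists hold no counts over common regions, so no count model was run. Groups came from the sample titles.

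The genes, lists and tests were chosen with earlier results of these data known. Named genes were the 10 of the set, other pathway genes bound in all 4 Rb libraries, the 2 gained genes per group ranked best in abemaciclib replicate 1, and neighbours whose promoter shares a peak. Pathway genes with no peak were named after their values were seen. The values of 1 pathway gene that this rule names are not reported here. Motifs were read from GRCh38. Alternatives covered the q-value threshold, the window, the overlap, list length, IgG2a overlap, ranking, scaling, motif window and each replicate left out.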

Additional observations from a re-analysis of the deposited data

How the results depend on the processing

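Over 13 results, 78 alternatives were run. Of these, 1 reversed the direction of a result and 10 shifted its value without reversing it. The other 67 stayed within the limits set for counts and percentiles or, for the pileup ratios, kept abemaciclib above DMSO. With each list held to its 1438 strongest peaks, the difference in bound genes between treatments reversed to -0.500, gained genes went from 6 to 1 (UHRF1) and genes bound in all 4 Rb libraries from 3 to 1 (DNMT1), since this removes most abemaciclib peaks by construction. At a q-value of at most 1e-05, genes bound in all 4 went from 3 to 1 (DNMT1), with 5 gained (UHRF1, HELLS, DNMT3A, UHRF2 and TET2), and other pathway genes bound in all 4 from 8 to 4. The median percentile in abemaciclib went from 10.5 to 27.3 for maintenance genes when peaks were ranked by width. For de novo and TET genes it went from 79.5 to 82.0 by fold, 71.8 by width and 83.5 among promoter peaks. Genes with an E2F match in abemaciclib replicate 1 went from 3 to 6 in 400-bp windows and to 6 in whole peaks. The cause of these shifts was not tested beyond what each change removes or adds.

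Leaving out each replicate kept the difference in bound genes at 6, gained genes at 6 and genes bound in all 4 at 3. Pileup ratios then ran from 8.23 to 11.8 for DNMT1, 6.84 to 10.9 for HELLS and 3.52 to 4.99 for CDCA7. Without depth scaling the ratios were 6.54, 5.76 and 2.79, on the deposited fold 6.45, 5.51 and 2.87, and scaled by the lowest background, an alternative chosen after seeing the data, 7.32, 6.42 and 3.21. With the replicate number as a block, also chosen after seeing the data, the difference in bound genes was 6 in each pair and the mean pileup ratios were 9.82 for DNMT1, 8.61 for HELLS and 4.22 for CDCA7, each with an exact sign-flip p of 0.5, the smallest that 2 pairs allow. The samples share only a number, so this says nothing of a true pairing. Depth limits the weak genes: TET3, TET2 and the de novo genes rested on 6 to 16 fragments, and intervals for such counts would cover counting error only.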
